A study of Mus musculus with 8 samples.

Results

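The transcripts examined here encode the nuclear subunits of the oxidative phosphorylation (OXPHOS) system, measured by RNA-seq in mouse embryonic stem cells (mESCs) that carry or lack the nuclear transport receptor IPO13. Members were all gene symbols that begin with Ndufa, Ndufb, Ndufc, Ndufs or Ndufv and a number, are Sdha to Sdhd, or begin with Uqcr, Cox4 to Cox8 or Atp5, and that had at least 10 counts over the 8 libraries. Of 23420 gene symbols in the count files 84 matched these names and 81 reached the minimum. They comprised 36 genes of complex I, 4 of complex II, 8 of complex III, 16 of complex IV and 17 of complex V. The libraries fall into 4 groups of 2, namely untreated IPO13+/+ cells (WT-NS), IPO13+/+ cells given 125 µM H2O2 over 1 h with a recovery of 2 h (WT-ST), and untreated and equally treated IPO13-/- cells (KO-NS and KO-ST). The cells came from day 5 preimplantation blastocysts on a 129 x C57BL/6 background and grew without feeder cells in medium with serum and LIF, a cytokine that holds mESCs in the pluripotent state. The sources do not say how many lines or clones stand for each genotype, nor whether the libraries of a group came from separate cultures, so that genotype cannot be told apart from other differences between the lines. P-values therefore measure the spread between these libraries, which may be technical.

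OXPHOS takes place in the inner mitochondrial membrane. Complexes I and II pass electrons from NADH and succinate to ubiquinone, complex III passes them on to cytochrome c, and complex IV, cytochrome c oxidase, hands them to oxygen, while the proton gradient built by complexes I, III and IV drives complex V, the ATP synthase. Most subunits are encoded in the nucleus, and the genes of the remaining ones lie on mitochondrial DNA. Complexes I and III are also known as sources of superoxide, from which H2O2 forms in the cell, and mESCs rely on glycolysis as well as respiration.

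Library totals ranged from 60397877 to 73789079 counts. A floor of 3 counts corresponded to 0.0407 to 0.0497 CPM (counts scaled to a common library total), which covers counting error only. Ipo13 itself had 68.3 to 72.4 CPM in the 4 IPO13+/+ libraries and 24.9 to 25.9 CPM in the 4 IPO13-/- libraries, so that the labels were borne out although the transcript was still counted in the knockout line. The 8 markers of naive pluripotency that were listed, among them Pou5f1, Nanog and Sox2, summed to 6676 to 6946 CPM in IPO13+/+ libraries and 5693 to 5931 CPM in IPO13-/- libraries. The 6 markers each of primed epiblast, primitive endoderm and fibroblast feeders summed to at most 24.5, 7.03 and 9.32 CPM in any library, and those of trophectoderm to 87.2 to 110.9 CPM. None of the 13 protein-coding genes of mitochondrial DNA is listed under its usual symbol in the count files, so that only the nuclear part of the system could be described.

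Levels are given as CPM after scaling with TMM factors, which correct library totals for differences in composition. Members took up 1.24% to 1.38% of all counts in a library. The ATP synthase contributed most, with 0.575% to 0.627%, against 0.254% to 0.293% for the 36 genes of complex I. Per kb of transcript and averaged over the 8 libraries, the catalytic beta subunit of ATP synthase, Atp5b, had the highest level of the members with 1102 CPM per kb. It was followed by Atp5g3, a gene for the membrane ring subunit c, with 611, by the catalytic partner Atp5a1 with 549 and by Cox4i1, a regulatory subunit of cytochrome c oxidase, with 507 CPM per kb. Of the genes that code for the electron-carrying core of complex I, Ndufv1 had 90.3 and Ndufs1 70.8 CPM per kb. In complex II the flavoprotein Sdha had 108 and the iron-sulfur protein Sdhb 74 CPM per kb, and in complex III the core protein Uqcrc1 had 193 and the Rieske protein Uqcrfs1 112 CPM per kb.

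Several subunits exist as paralogues of which 1 is ubiquitous and the others are known from particular tissues, and these mESCs expressed chiefly the ubiquitous form. On the scale of CPM per kb, Cox4i1 stood at 507 against 1.19 for Cox4i2, which is known from lung, and Cox7b at 385 against 1.87 for Cox7b2. Cox8a had 428 CPM per kb and Cox8c 0.280, while the heart and muscle forms Cox8b and Cox6a2 held 1 and 4 counts in all 8 libraries together and thus fell short of the minimum. The family of Cox7a was more evenly divided, with 223 CPM per kb for Cox7a2, 120.1 for Cox7a2l, known as a factor of respiratory supercomplexes, and 4.63 for the muscle form Cox7a1. Cox6b2, known as a testis form, reached 59.3 CPM per kb beside 269.7 for Cox6b1. Ndufa4, now regarded as a subunit of complex IV although its symbol places it in complex I, had 373 and its hypoxia-inducible relative Ndufa4l2 7.59 CPM per kb. The 3 genes for subunit c had 611 (Atp5g3), 171 (Atp5g2) and 68.3 (Atp5g1) CPM per kb. Ndufs5, an accessory subunit of complex I, also missed the minimum with 1 count in 8 libraries. In GENCODE M21, 53.3% of its transcript has a near-identical copy in another gene, and the part of this copy in the low count was not tested.

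Reads of some members can be hard to place. Of the 81 members, 24 share a stretch of at least 100 bases with at least 97% identity with a transcript of another annotated gene, and for 9 of them these stretches cover at least 50% of the transcript (Atp5g2, Atp5o, Atp5h, Ndufs3, Atp5l, Atp5f1, Uqcrb, Atp5g1 and Cox7c). Exons of 28 members overlap those of another annotated gene, most of them on the opposite strand, with a share of 39.0% of the exonic bases for Ndufb6. For Atp5o it reaches 47.9%, with 35.6% on the opposite strand, and 1 of the overlapping entries bears the symbol Atp5o itself. The search for shared stretches did not leave out overlapping genes, so that some bases enter both counts. The shares of Ndufb6 (39.0%), Ndufa13 (30.0%) and Ndufb11 (12.9%) were the same in both. The values of members with overlapping exons are uncertain to that extent, since the sources do not state whether counting used the strand. The symbols Atp5s and Atp5sl, counted here with complex V, belong to proteins that are not regarded as subunits of the enzyme, and Atp5sl is known as an assembly factor of complex I.

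Promoter sequences were examined because members of the pathway share known regulators, among them NRF1, GABPA and YY1. RefSeq windows on GRCm38.p6, from 250 bases before to 50 bases after the annotated start, were given for 64 of the 81 members and searched on both strands. The NRF1 core CGCATGCG, which reads the same on both strands, occurred in 8 of the 64 windows (12.5%), in 4.49% of windows of expressed genes (average log2 CPM above 1) and in 1.91% of all 27025 windows. These stretches, on the strand of the gene and with the core in capitals, were as follows.
Atp5g2: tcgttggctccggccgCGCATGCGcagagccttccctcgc
Atp5k: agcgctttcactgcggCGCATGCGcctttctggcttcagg
Atp5l: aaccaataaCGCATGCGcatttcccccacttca
Cox6a1: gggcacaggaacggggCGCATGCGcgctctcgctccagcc
Ndufa11: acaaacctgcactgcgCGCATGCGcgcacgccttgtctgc
Ndufa8: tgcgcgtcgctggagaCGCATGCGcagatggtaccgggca
Uqcr11: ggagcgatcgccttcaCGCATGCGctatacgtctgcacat
Uqcrc1: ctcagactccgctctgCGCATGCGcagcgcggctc
They came from ATP synthase (3 genes), complex IV (1 gene), complex III and complex I (2 genes each), and 7 of the 8 genes carried the core between position -161 and position 32 relative to the start, with Atp5l at -241. The position of the stretch is chr2:36049324-36049363 for Ndufa8, chr9:108936663-108936697 for Uqcrc1 and chr5:115349096-115349135 for Cox6a1.

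The YY1 core AAGATGGC was likewise found in 8 of 64 windows (12.5%), against 5.21% of windows of expressed genes and 2.88% of all windows. In 7 of the 8 cases the gene coded for a subunit of complex I, and the core lay on the strand of the gene in all 8, between positions 23 and 39 after the start.
Atp5j2: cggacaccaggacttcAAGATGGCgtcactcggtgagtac
Ndufa3: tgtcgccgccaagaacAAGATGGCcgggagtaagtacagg
Ndufa9: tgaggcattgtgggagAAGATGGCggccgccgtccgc
Ndufb8: aaccgcggagaaggtgAAGATGGCtgcc
Ndufc1: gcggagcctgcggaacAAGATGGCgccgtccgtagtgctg
Ndufs4: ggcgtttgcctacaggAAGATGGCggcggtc
Ndufs6: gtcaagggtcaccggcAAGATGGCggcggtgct
Ndufs7: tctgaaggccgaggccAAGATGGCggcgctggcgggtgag
The stretches of Ndufa9 and Ndufs6 lie at chr6:126849095-126849131 and chr13:73328433-73328465. The ETS core CCGGAAGT, the binding letters of GABPA, occurred in 7.81% of the members' windows, in 8.97% of those of expressed genes and in 4% of all windows. The SP1 box GGGCGG occurred in 40.6%, 68.1% and 35.9%, and the KLF4 site GGGNGTGG in 18.8%, 23.8% and 17.6%. For these 3 motifs the share of members lay between those of all windows and of expressed genes. A match describes letters in a window and not a bound factor.

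Whole windows are given for the members on which the comparisons below turn, with the NRF1, ETS and YY1 cores in capitals. These are Cox7a2 (chr9:79759804-79760103, minus strand), Cox7a2l (chr17:83514284-83514583, minus), Cox6b2 (chr7:4753045-4753344, minus), Ndufb6 (chr4:40279372-40279671, minus) and Ndufa8 (chr2:36049289-36049588, minus).
Cox7a2: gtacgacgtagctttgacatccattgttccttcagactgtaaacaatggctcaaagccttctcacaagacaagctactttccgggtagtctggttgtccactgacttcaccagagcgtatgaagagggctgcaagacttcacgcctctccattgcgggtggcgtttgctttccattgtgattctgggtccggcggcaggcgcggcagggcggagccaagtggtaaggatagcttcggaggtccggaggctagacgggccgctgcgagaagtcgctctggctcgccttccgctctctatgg
Cox7a2l: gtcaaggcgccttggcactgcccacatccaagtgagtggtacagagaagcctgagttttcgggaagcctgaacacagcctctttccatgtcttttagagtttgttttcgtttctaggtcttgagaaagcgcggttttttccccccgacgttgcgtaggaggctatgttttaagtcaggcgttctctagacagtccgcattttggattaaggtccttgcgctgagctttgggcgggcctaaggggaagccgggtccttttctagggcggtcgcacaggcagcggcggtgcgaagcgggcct
Cox6b2: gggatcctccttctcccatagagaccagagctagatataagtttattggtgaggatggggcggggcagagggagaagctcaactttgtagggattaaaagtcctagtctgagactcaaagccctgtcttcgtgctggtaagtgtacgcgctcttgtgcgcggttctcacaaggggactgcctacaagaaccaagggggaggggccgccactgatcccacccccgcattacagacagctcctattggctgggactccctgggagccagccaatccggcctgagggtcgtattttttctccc
Ndufb6: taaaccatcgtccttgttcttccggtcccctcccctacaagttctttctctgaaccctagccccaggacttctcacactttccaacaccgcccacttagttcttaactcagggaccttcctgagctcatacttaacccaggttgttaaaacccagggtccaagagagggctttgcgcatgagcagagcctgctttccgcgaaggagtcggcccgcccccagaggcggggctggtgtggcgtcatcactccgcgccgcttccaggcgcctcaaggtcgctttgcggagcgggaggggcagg
Ndufa8: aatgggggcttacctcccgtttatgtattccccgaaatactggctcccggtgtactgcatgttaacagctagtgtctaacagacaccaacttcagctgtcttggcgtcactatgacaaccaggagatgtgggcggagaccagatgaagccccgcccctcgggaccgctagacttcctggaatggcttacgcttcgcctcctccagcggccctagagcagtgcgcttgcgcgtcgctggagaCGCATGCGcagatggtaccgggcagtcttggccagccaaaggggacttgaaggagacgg
Only the window of Ndufa8 among these 5 holds a core of NRF1, GABPA or YY1.

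OXPHOS subunit transcripts are short. The median coding transcript of a member measured 745 bases, against 2760 bases for expressed genes (average log2 CPM above 1), and 66.7% of members had a median under 1 kb compared with 7.32% of those genes. Length matters here because replicates of a group differed by length. In WT-NS the second replicate exceeded the first by a median of 0.08 on the log2 scale over genes under 1 kb and fell short of it by a median of -0.18 over genes above 8 kb. In KO-ST the corresponding medians were 0.09 and -0.11 and in KO-NS 0.03 and -0.09, while in WT-ST they were 0.01 in both classes. The members differed between replicates of the same groups. Their median log2 ratio of replicate 2 over replicate 1 was 0.08 in WT-NS, where 72 of 81 were above 0, 0.08 in KO-ST (79 of 81), 0.04 in KO-NS (64 of 81) and -0.00 in WT-ST (40 of 81). The members' ratio fell over the classes up to 4 kb in KO-ST and KO-NS, as that of all genes did, but not steadily in WT-NS. In WT-NS the medians under 1 kb, from 1 to 2 kb and from 2 to 4 kb were 0.08, 0.10 and 0.06 over members and 0.08, 0.05 and -0.00 over all genes, with 6 members in the last class. In KO-ST they were 0.10, 0.07 and 0.05 over members and 0.09, 0.04 and -0.00 over all genes. In KO-NS they were 0.05, 0.03 and 0.01 over members and 0.03, 0.02 and -0.00 over all genes. No test was applied to these replicate differences.

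**Figure D1:**
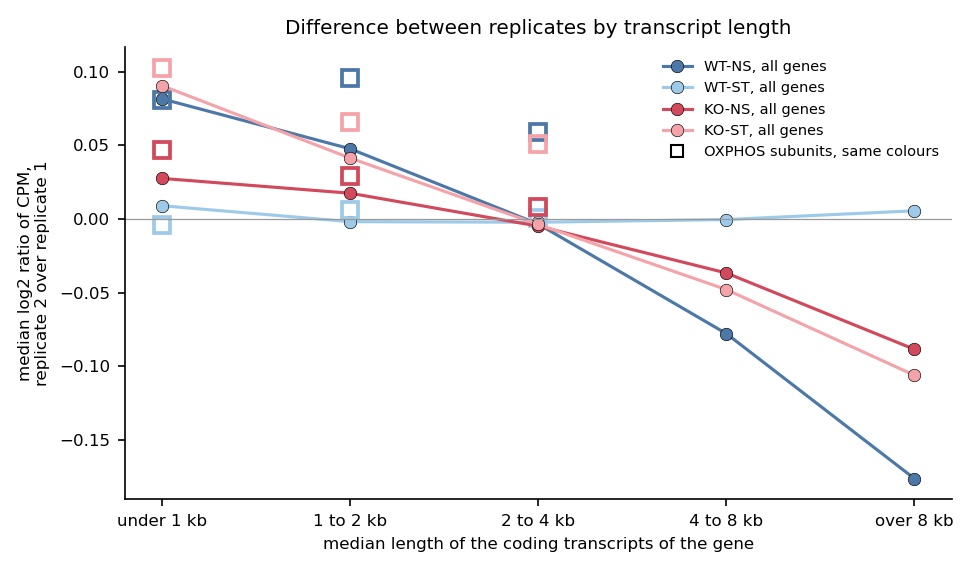
Median log2 ratio of TMM-scaled CPM between the 2 replicates of each group (y axis) over classes of transcript length (x axis), for expressed genes (filled points, lines) and for OXPHOS subunits (open squares, classes with at least 6 members). The lines of WT-NS, KO-ST and KO-NS fall with length, and that of WT-ST stays near 0.

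The typical level of the members varied between libraries, although single members departed from it. Expressed as the deviation of log2 CPM from the mean of each gene, the median of the 81 members was -0.11 and -0.06 in the KO-NS libraries, the 2 lowest values, and 0.01 and 0.10 in the KO-ST libraries, the second of which was the highest of all. The WT-NS libraries stood at -0.02 and 0.06 and the WT-ST libraries at -0.00 and 0.01, so that the wild-type groups overlapped and the knockout groups did not. Complex I showed the same order at its ends, with -0.10 and -0.06 in KO-NS and 0.01 and 0.11 in KO-ST.

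**Figure D2:**
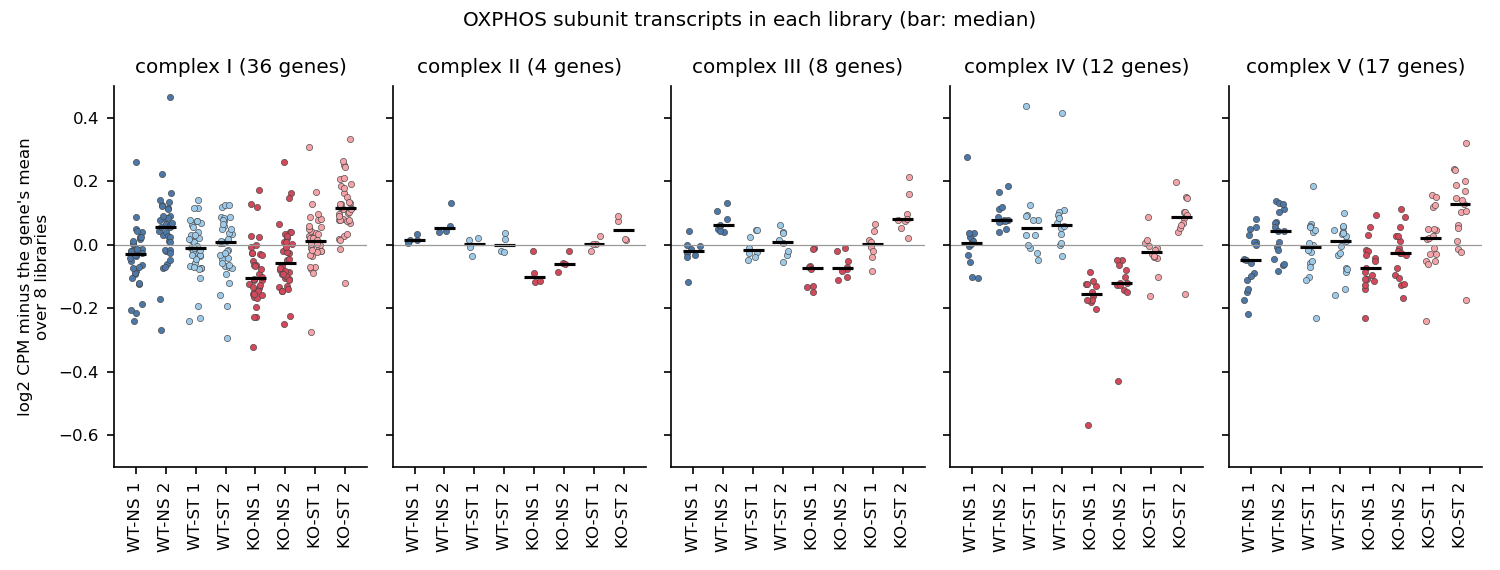
Each point is a gene in a library (x axis), plotted as its log2 CPM minus its mean over the 8 libraries (y axis) and grouped by complex, with bars at the median. The 4 members with a mean under 3 CPM are left out. The median of each KO-NS library lies below those of all other groups in complexes I to IV, and that of the second KO-ST library is highest in complexes I, III, IV and V.

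The response of IPO13+/+ cells to H2O2 was examined first, with edgeR's quasi-likelihood test over 19424 genes and an FDR below 0.05 as the threshold. Of the 81 members 1 rose and 2 fell, while 11.5% of all tested genes rose and 13.8% fell, so that the shares of members (1.23% and 2.47%) were below the background in both directions. Over expressed genes the shares were 14.7% and 22.4%. The median log2 fold change of members was -0.02, against -0.00 over all tested genes and -0.04 over expressed genes. The sign of the members' median was not stable, with -0.05 without WT-NS replicate 1, 0.02 without WT-NS replicate 2 and 0.02 with library totals. With library totals the median of all genes was 0.02 as well. With relative log expression factors the counts were 3 and 2, with library totals alone 5 and 1, and with an offset for transcript length 6 and 2. Single libraries moved the counts. The number higher was 8 without WT-NS replicate 2, 5 without either KO-ST library and 0 without WT-ST replicate 1. The number lower was 8 without WT-NS replicate 1, 1 without WT-NS replicate 2 or either KO-ST library, and 0 without any one of the WT-ST and KO-NS libraries. At 2-fold and FDR below 0.05, 2.90% of all genes and no member were called, and 78 of the 81 members did not pass the threshold in either direction.

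Cox6b2 was the member that rose. It had 30.3 and 28.4 CPM in WT-NS and 33.9 and 33.3 CPM in WT-ST, which did not overlap (log2 fold change 0.20, standard error 0.05, FDR = 0.0069 in edgeR). Ndufs1, the largest core subunit of complex I with several iron-sulfur clusters, fell from 192 and 197 CPM to 177 and 178 CPM (log2 fold change -0.13, standard error 0.04, edgeR FDR = 0.011). Ndufa4l2 fell from 8.35 and 9.62 CPM to 7.69 and 7.34 CPM (log2 fold change -0.26, standard error 0.08, edgeR FDR = 0.015). The calls were lost without WT-NS replicate 2 or WT-ST replicate 1 for Cox6b2, without any one of the 6 libraries of WT-ST, KO-NS and KO-ST for Ndufs1, and without WT-NS replicate 2 or any one of the WT-ST and KO-NS libraries for Ndufa4l2. In complexes II, III and V no member was called. Both WT-ST libraries lay above both WT-NS libraries in 25.8% of expressed genes and below them in 43.0%. The counts of members were 10 and 17 of 81, so that a lack of overlap was common.

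In IPO13-/- cells 46 of 81 members rose after H2O2 and none fell in edgeR's test. The background was 14.9% higher and 14.4% lower over all genes, against 56.8% of members higher. The 46 comprised 20 of 36 genes of complex I, 2 of 4 of complex II, 3 of 8 of complex III, 10 of 16 of complex IV and 11 of 17 of complex V, so that every complex was represented. The changes were small. The median log2 fold change was 0.14 over members and 0.00 over all tested genes, with medians of 0.13, 0.11, 0.11, 0.20 and 0.13 for complexes I to V. At 2-fold and FDR below 0.05 the count was 0 of 81 members and 2.89% of all genes. In 64 of the 81 members both KO-ST libraries lay above both KO-NS libraries, and in 3 both lay below, compared with 34.9% and 38.8% of expressed genes.

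The count of 46 rested in part on single libraries. It was 7 without KO-NS replicate 1 and 13 without KO-ST replicate 2, and between 31 and 57 without any other library, with no member lower in any of these fits. With library totals alone it was 28. The median log2 fold change of members was 0.12 without KO-NS replicate 1 and 0.10 without KO-ST replicate 2, and that of all genes was 0.00 in both fits. Short transcripts as a class moved the same way in this comparison, with a median log2 fold change of 0.09 over genes under 1 kb and -0.03 over genes of 2 kb and more. Within the class under 1 kb, 59.3% of members and 29.4% of other genes were called higher, and among genes of 1 to 2 kb 57.1% and 21.5%. With an offset for the trend of each library with length, 43 members were higher and the members' median was 0.11. The part of length in the members' change was otherwise not tested.

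**Figure D3:**
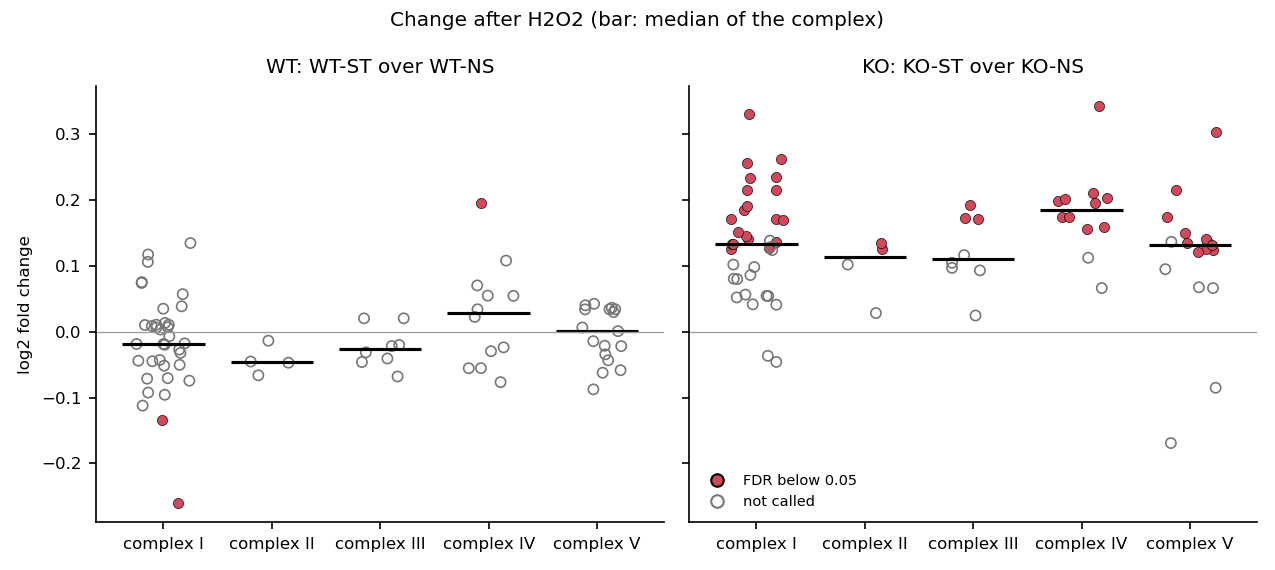
Log2 fold changes after H2O2 (y axis) of members by complex (x axis) in IPO13+/+ cells (left) and IPO13-/- cells (right), with bars at the median of each complex. Filled points passed an FDR below 0.05 in edgeR, the 4 members with a mean under 3 CPM are left out, and all filled points on the right lie above 0.

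Ndufb6, an accessory subunit in the membrane arm of complex I, had the largest change of its complex. It stood at 63.1 and 67.5 CPM in KO-NS and at 77.4 and 86.9 CPM in KO-ST (1.26-fold, log2 fold change 0.33, standard error 0.05, edgeR FDR = 1.8e-05), and its exons overlap the antisense gene Smim27. Sdhd, a membrane anchor of complex II, rose from 181 and 185 CPM to 197 and 206 CPM (log2 fold change 0.13, standard error 0.04, edgeR FDR = 0.012). Uqcrc1 rose from 288 and 302 CPM to 334 and 341 CPM (log2 fold change 0.19, standard error 0.04, edgeR FDR = 0.00045). None of these groups overlapped. In complex IV, Cox6b2 rose from 16.9 and 18.6 CPM to 22.4 and 22.5 CPM (1.27-fold, log2 fold change 0.34, standard error 0.06, edgeR FDR = 4e-05). In complex V, Atp5l, the membrane subunit g, rose from 68.7 and 74 CPM to 83.5 and 92.6 CPM (log2 fold change 0.30, standard error 0.06, edgeR FDR = 0.00013). Ndufb6, Uqcrc1 and Cox6b2 kept the call under every alternative, Atp5l lost it without KO-NS replicate 1, and Sdhd lost it with library totals and without KO-NS replicate 1 or KO-ST replicate 2.

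Among core and catalytic subunits, Uqcrc1, Cox4i1, Ndufv1 and Atp5b rose in IPO13-/- cells. The log2 fold change was 0.13 for Ndufv1 (edgeR FDR = 0.033), which binds NADH, and 0.12 for Atp5b (edgeR FDR = 0.0057). It was 0.20 for Cox4i1 (edgeR FDR = 0.00068). Cox4i1 lost the call without KO-NS replicate 1, Atp5b without this library or KO-ST replicate 2, and Ndufv1 without any one of the WT-ST and KO-NS libraries or KO-ST replicate 2. The log2 fold change was -0.05 for Ndufs1, 0.03 for Sdha, 0.10 for Sdhb, 0.02 for Uqcrfs1, 0.11 for Cox5a and 0.07 for Atp5a1, none of which passed. A difference between core and accessory subunits was not tested. Ndufs1, Ndufs7, Atp5s and Atp5sl were the only 4 members with a log2 fold change below 0, and as given above the last 2 are not regarded as subunits. Sdha is also a reference gene in the RT-qPCR of the study together with Tbp, and it was not called in any comparison. It had 322 and 323 CPM in WT-NS, 306 and 310 CPM in WT-ST, 310 and 310 CPM in KO-NS and 315 and 318 CPM in KO-ST, so that treated libraries lay below untreated ones in IPO13+/+ cells and above them in IPO13-/- cells.

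Without treatment, IPO13-/- cells differed from IPO13+/+ cells in 38 members, of which 8 were higher and 30 lower in edgeR's test. Over all genes 18.7% were higher and 19.4% lower, whereas 9.88% of members were higher and 37.0% lower. Among short genes the shares were closer. Under 1 kb, 35.2% of members and 32.9% of other expressed genes were lower, and from 1 to 2 kb 42.9% and 31.4%. The median log2 fold change was -0.10 over members and 0.00 over all tested genes, and 67 of 81 members were below 0. The members' median was -0.02 with library totals, -0.06 with the length offset and -0.05 without WT-NS replicate 2. Over all genes the median was 0.06, 0.00 and 0.00 in these fits. The 30 comprised 10 of 36 genes of complex I, 3 of 4 of complex II, 3 of 8 of complex III, 9 of 16 of complex IV and 5 of 17 of complex V. With library totals alone the split was 10 higher and 10 lower, so that the number of members called lower depended on the scaling. The number lower was 8 without KO-NS replicate 1, 19 without WT-NS replicate 2 and between 20 and 42 without any other library.

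Cox6b2 had the lowest FDR of all members. It stood at 30.3 and 28.4 CPM in WT-NS and at 16.9 and 18.6 CPM in KO-NS, a ratio of 0.603 (log2 fold change -0.73, standard error 0.06, edgeR FDR = 4.3e-11). Ndufa4l2 was lower in KO-NS with 5.57 and 5.96 CPM than in WT-NS with 8.35 and 9.62 CPM (log2 fold change -0.64, standard error 0.08, edgeR FDR = 3.7e-07). Neither pair of groups overlapped, and both calls held under every alternative. Both KO-NS libraries lay above both WT-NS libraries in 34.5% of expressed genes and below them in 40.4%, against 9 and 44 of the 81 members. The abundant ATP synthase transcripts were lower by less. Atp5b had 2181 and 2278 CPM in WT-NS and 1913 and 1932 CPM in KO-NS (log2 fold change -0.21, standard error 0.03, edgeR FDR = 9.4e-06), and Atp5a1 had 1467 and 1553 CPM against 1308 and 1321 CPM (log2 fold change -0.20, edgeR FDR = 4.7e-05). Atp5j2, the membrane subunit f, was lower by the largest amount in complex V (log2 fold change -0.22, edgeR FDR = 0.00076), though not without KO-NS replicate 2.

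Among the other complexes, Sdhb led in complex II (log2 fold change -0.18, edgeR FDR = 0.0025) and Uqcr10, a small subunit of complex III, in its complex (log2 fold change -0.19, edgeR FDR = 0.0017). Both lost the call with library totals and without KO-NS replicate 1. Among the paralogues of complex IV, Cox6b1 was lower like Cox6b2. Cox8a was lower (log2 fold change -0.23, edgeR FDR = 0.00011) and Cox8c higher (1.40, edgeR FDR = 0.034), and Cox7b stood at -0.12 without a call and Cox7b2 was higher (0.80, edgeR FDR = 0.00037). Cox4i1, Cox5a, Cox6a1, Cox6b1 and Cox7a2 were lower, with log2 fold changes of -0.14 to -0.19, whereas Cox4i2 and Cox7a1 were not called. The first 4 of these lost the call without KO-NS replicate 1, Cox5a also without WT-NS replicate 2, and Cox7a2 without KO-NS replicate 2.

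The 8 members that were higher in KO-NS were Ndufa8, Ndufa12 and Ndufs3 of complex I, Cox7b2 and Cox8c of complex IV, and Atp5c1, Atp5g1 and Atp5g3 of complex V. Of these, Ndufa8, Ndufs3, Atp5c1 and Atp5g3 lie on chromosome 2. In all, 6 members lie on this chromosome, the other two being Atp5e and Cox4i2, and 4 of the 6 were higher compared with 4 of 75 elsewhere. The chromosome as a whole moved in the same direction. Over 874 expressed genes of chromosome 2 the median log2 fold change was 0.27 and 76.2% of genes were called higher, against -0.04 and 20.7% over the 10404 genes elsewhere. The part of the chromosome in the members' difference was not tested.

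Ndufa8 (chromosome 2, 36036326 to 36049406, minus strand, GRCm38), an accessory subunit that is imported into the intermembrane space, was the leading member of complex I. It had 47.0 and 46.2 CPM in WT-NS and 60.7 and 66.7 CPM in KO-NS (1.36-fold, log2 fold change 0.45, standard error 0.05, edgeR FDR = 2.5e-08). Atp5c1, the central stalk subunit gamma of ATP synthase (chromosome 2, 10056016 to 10080510, minus strand), had 327 and 347 CPM in WT-NS and 387 and 392 CPM in KO-NS (log2 fold change 0.21, standard error 0.04, edgeR FDR = 0.00019). Cox7b2 had 45 and 56 counts, or 0.671 and 0.799 CPM, in WT-NS and 91 and 86 counts, or 1.20 and 1.39 CPM, in KO-NS (log2 fold change 0.80, standard error 0.17, edgeR FDR = 0.00037). The groups did not overlap for any of the 3 genes. Cox8c was the only member past 2-fold, where 4.71% of all genes were called in either direction. Its 4 and 6 counts in WT-NS and 14 and 13 counts in KO-NS gave a ratio of 2.84, with an exact 95% counting interval of 1.33 to 6.58, and its call was lost in DESeq2 and without any one of these 4 libraries.

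**Figure D4:**
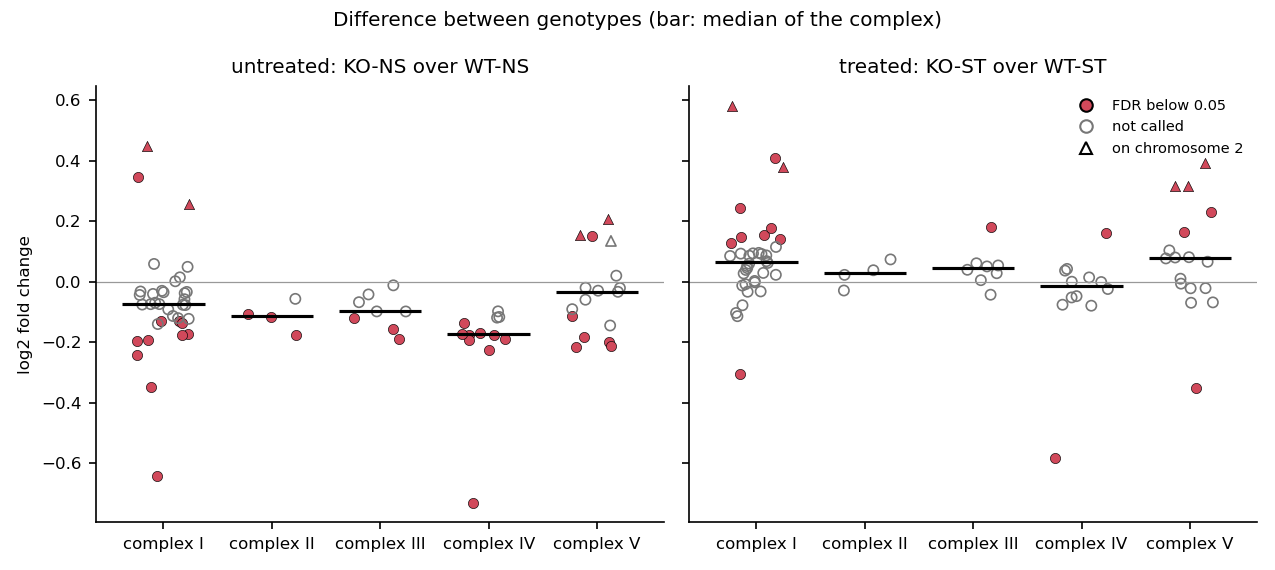
Log2 fold changes of IPO13-/- over IPO13+/+ cells (y axis) by complex (x axis), untreated (left) and after H2O2 (right), with bars at the median. Triangles mark members on chromosome 2, which lie at or near the top of complexes I and V, and the 4 members with a mean under 3 CPM are left out.

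After H2O2 the members of IPO13-/- cells no longer lay below those of IPO13+/+ cells as a group. In edgeR's test 18 members were higher and 3 lower (22.2% and 3.70%). The background was 19.1% higher and 17.5% lower over all tested genes, and 26.8% and 24.4% over expressed genes. The share of members higher was near or below the background, and the share lower was below it. The median log2 fold change was 0.05, against 0.00 over all tested genes, and it was 0.00 without KO-ST replicate 2, 0.09 without KO-ST replicate 1 and 0.02 with the length offset. The 18 comprised 9 genes of complex I, 1 of complex III, 3 of complex IV and 5 of complex V. With the length offset the split was 19 higher and 9 lower. The number higher was 11 without WT-ST replicate 2 and 10 without KO-ST replicate 2, and the number lower was 1 without WT-ST replicate 1 and 6 without KO-ST replicate 2.

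The 8 members that were higher without treatment were higher after it as well, and Cox6b2 and Ndufa4l2 were lower in both, Ndufa4l2 not without WT-ST replicate 1 or KO-ST replicate 1. These comparisons share no library, but both compare the same genotypes within the same fit, so that other differences between the lines enter both. The share of all genes called in both was not computed, and 4 of the 8 members lie on chromosome 2, as given above. Ndufa8 had 47.4 and 45.4 CPM in WT-ST and 68.8 and 70.1 CPM in KO-ST (log2 fold change 0.58, standard error 0.05, edgeR FDR = 2.3e-10). Atp5c1 had 309 and 325 CPM against 404 and 428 CPM (log2 fold change 0.39, edgeR FDR = 1.8e-08). Cox6b2 had 33.9 and 33.3 CPM against 22.4 and 22.5 CPM (log2 fold change -0.58, edgeR FDR = 2e-09). The groups of these genes did not overlap, and the calls held under every alternative. Both KO-ST libraries lay above both WT-ST libraries in 39.5% of expressed genes and below them in 38.9%, against 36 and 14 of the 81 members. On chromosome 2, 5 of 6 members were higher, and so were 77.2% of its 874 genes, with a median log2 fold change of 0.29. Outside it 13 of 75 members were higher. Atp5s was the third member that was lower (log2 fold change -0.35, edgeR FDR = 0.0033).

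At 2-fold and FDR below 0.05, 4.56% of all genes were called and 2 members. Cox7b2 (chromosome 5, 71442824 to 71548205, minus strand) had 44 and 45 counts in WT-ST and 88 and 87 in KO-ST (log2 fold change 1.09, standard error 0.17, edgeR FDR = 1.3e-05). Cox8c had 1 count in each WT-ST library and 16 and 13 in KO-ST, a ratio of 15.8 with an exact counting interval of 4 to 136.7. Both are low transcripts in these cells. Uqcr11, a small subunit of complex III, was the member of its complex that was higher (log2 fold change 0.18, edgeR FDR = 0.0085), and this call was lost without either WT-ST library or KO-ST replicate 2.

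Whether the responses of the genotypes to H2O2 differed was tested by the interaction. In edgeR 2 members passed, both with a larger change in IPO13-/- cells, while 2.01% of all genes passed in this direction, 0.705% in the other and 0.144% at 2-fold in either. The share of members was 2.47%, near that of all tested genes and below the 3.32% of expressed genes that passed in this direction. The median interaction was 0.14 over members and 0.02 over all tested genes, and 79 of 81 members were above 0. Of 744 other expressed genes under 1 kb, 604 were above 0 as well. The median of members was 0.07 with library totals, 0.09 with the length offset and 0.09 without KO-ST replicate 2. Over all genes it was -0.05, -0.00 and -0.00 in these fits. The length classes differed here too, with a median of 0.11 over all genes under 1 kb and 0.01 over those of 2 kb and more, and of 0.15 and 0.11 over members of these classes.

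The 2 members were Cox7a2 (chromosome 9, 79755361 to 79759878, minus strand) and Cox7a2l (chromosome 17, 83501918 to 83517330, minus strand), paralogues of complex IV whose promoter windows, shown above, hold none of the NRF1, ETS or YY1 cores. Cox7a2 had 151 and 159 CPM in WT-NS, 147 and 147 in WT-ST, 138 and 132 in KO-NS and 146 and 157 in KO-ST. Cox7a2l had 127 and 139 CPM in WT-NS, 128 and 129 in WT-ST, 121 and 128 in KO-NS and 140.5 and 146 in KO-ST. The treated and untreated groups did not overlap for either gene in IPO13-/- cells, and they overlapped for Cox7a2l in IPO13+/+ cells. The log2 fold change after H2O2 was -0.08 and 0.16 for Cox7a2 and -0.06 and 0.20 for Cox7a2l in IPO13+/+ and IPO13-/- cells, and the interaction was 0.24 (standard error 0.06, edgeR FDR = 0.036) and 0.26 (standard error 0.06, edgeR FDR = 0.026). Limma-voom and DESeq2 called no member. Without WT-NS replicate 1, 31 members were called, and without any one of the other 7 libraries at most 1. Of the transcript of Cox7a2l, 31.2% is shared with another annotated gene.

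**Figure D5:**
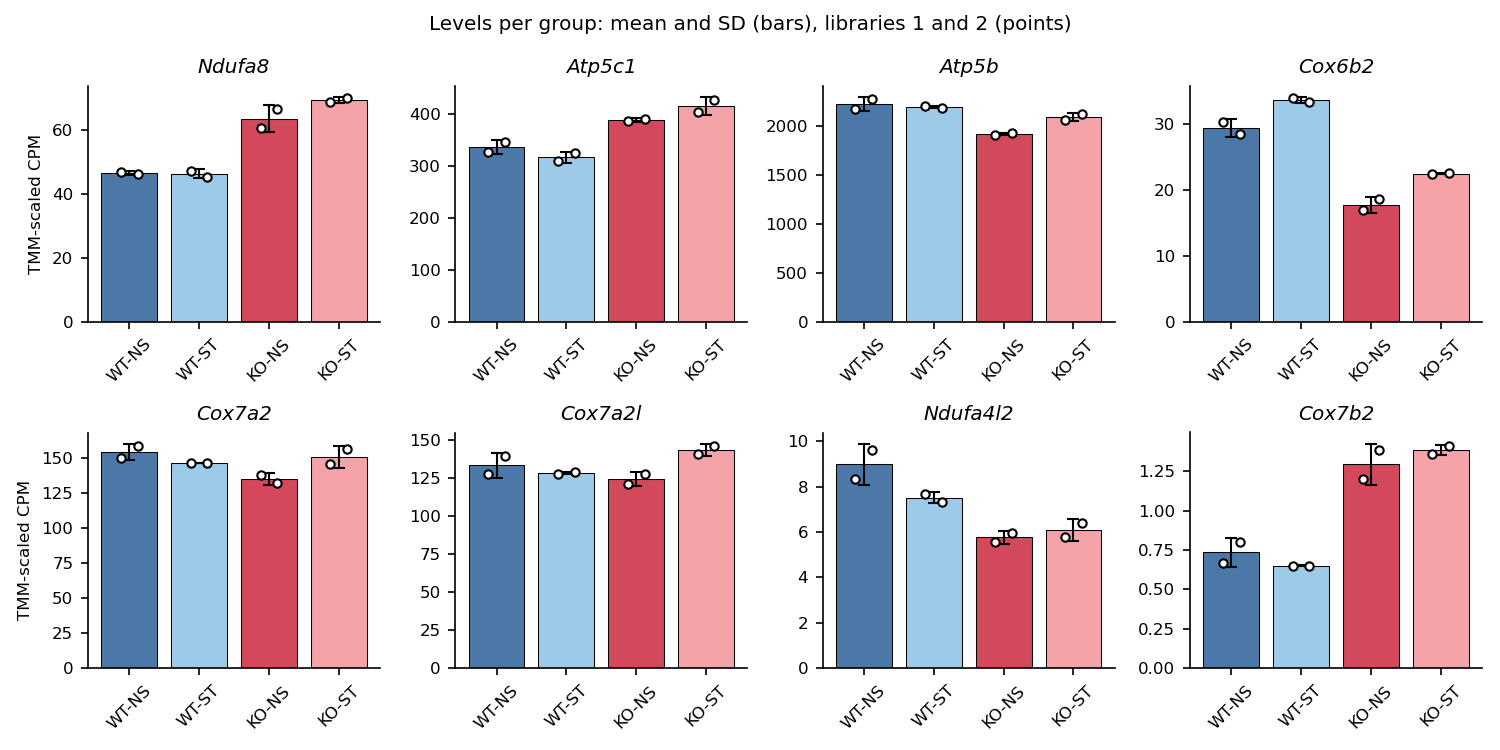
TMM-scaled CPM (y axis, from 0) of 8 members in the 4 groups (x axis), with bars at the mean, error bars of 1 SD over 2 libraries and points for the libraries. Ndufa8, Atp5c1 and Cox7b2 stand higher and Cox6b2 and Ndufa4l2 lower in both IPO13-/- groups.

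Other genes of the pathway were read from lists. For this and the following lists, 14.9% of all tested genes rose and 14.4% fell after H2O2 in IPO13-/- cells. In untreated IPO13-/- cells 18.7% of all tested genes were higher and 19.4% lower than in IPO13+/+ cells. Of 16 measured assembly factors of complex I, 1 rose and 1 fell in IPO13-/- cells after H2O2, and of 20 of complex IV 3 rose and 1 fell, with medians of 0.02 and 0.05. Of the assembly factors of complexes II, III and V, 0 of 2, 2 of 3 and 0 of 3 rose and none fell. A list of 17 related genes outside the symbol rule held subunits, electron carriers such as the cytochromes Cyc1 and Cycs, and the ATPase inhibitor Atpif1. It also held enzymes of ubiquinone synthesis (the Coq and Pdss genes). Of these 17 genes 6 rose and 1 fell. The 6 included Usmg5 (0.25), Ndufab1 (0.20) and Atpif1 (0.16), which encode a small subunit of ATP synthase, the acyl carrier protein of complex I and the ATPase inhibitor. Of 17 genes of the TCA cycle, which supplies NADH and succinate, 5 rose and none fell (median 0.07), and in untreated cells 1 was higher and 7 were lower in IPO13-/- cells (median -0.07).

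Ribosomal protein genes are short as well and were read for comparison. Of 80 genes of the cytosolic ribosome 68 rose in IPO13-/- cells after H2O2 and none fell (median log2 fold change 0.15), and 5 were higher and 69 lower in untreated IPO13-/- cells (median -0.21). Of 76 genes of the mitochondrial ribosome, 3 rose and 8 fell (median 0.01), and 11 were higher and 17 lower in untreated cells (median -0.03). The difference between members and these lists was not tested.

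Of 15 measured regulators of OXPHOS genes 2 rose and 6 fell after H2O2 in IPO13+/+ cells, and 3 rose and 6 fell in IPO13-/- cells. Over all tested genes 11.5% rose and 13.8% fell in IPO13+/+ cells, and 14.9% rose and 14.4% fell in IPO13-/- cells. Nrf1 fell in both genotypes, from a mean of 89.1 to 72.5 CPM in IPO13+/+ cells and from 87.6 to 76.7 CPM in IPO13-/- cells (log2 fold change -0.30 and -0.19, both called). Gabpa (-0.20 and -0.15) and Pprc1 (-0.24 and -0.14) fell in both as well, whereas Esrra (0.40 and 0.27) and Gabpb1 (0.22 and 0.45) rose in both. Yy1 and Sp1 were not called in any comparison. Tfam, which is needed for the transcription of mitochondrial DNA, was lower in IPO13-/- cells without and with treatment (-0.27 and -0.25). The median KO stress response was 0.17 over the 8 members with an NRF1 core and 0.13 over the 56 without, and 7 and 32 of them rose. For the YY1 core it was 0.13 over 8 and 0.14 over 56 members, and for the KLF4 site 0.16 over 12 and 0.13 over 52. For the ETS core it was 0.14 over 5 and 0.14 over 59 members, and for the SP1 box 0.14 over 26 and 0.14 over 38. Differences between members with and without a motif were not tested. Of 8 antioxidant enzymes of mitochondria none was called after H2O2 in IPO13+/+ cells, and 1 rose and 1 fell in IPO13-/- cells. Sod2, the superoxide dismutase of the matrix, was lower in IPO13-/- cells (-0.45 untreated, -0.29 treated), and Gpx4 was the enzyme that rose (0.18).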

How the data were processed

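Counts and CPM were examined for 8 libraries, to which groups and replicates were assigned by label. The authors mapped reads to mm10, and the submitters' notes name STAR 2.3.1, HTSeq and limma. They deposited raw counts per gene symbol, and CPM values that scale the counts by the library total and served only as a check. Counts of 19424 genes with at least 1 count were fitted with edgeR 4.0.16 (quasi-likelihood, TMM factors, 4 groups) in R 4.3.3, and p-values were adjusted by Benjamini-Hochberg over all of them. Standard errors are the absolute log2 fold change over the square root of F. The procedure was tested on simulated data. Alternatives were limma-voom (limma 3.58.1, the test of the study), DESeq2 1.42.0, other factors, filters, a length offset, a replicate block and omission of each library. Without a library its group holds 1, assumed to vary like the others. Lengths came from GENCODE M21, which held all 81 members, and levels per kb use the median coding transcript, a choice made after the data were seen. Members and lists were chosen with earlier results of these data known. Named members were those past 2-fold, the lowest FDR and largest change per complex and comparison, the interaction calls, core subunits and the paralogue families. Members outside this rule (Ndufa12, Ndufs3, Ndufs7, Atp5e, Atp5s, Atp5sl and those with promoter matches) were named after their values were seen. The values of 1 core subunit are not reported here.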

Additional observations from a re-analysis of the deposited data

Results flagged for a closer look

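The stress responses of the genotypes differed for Cox7a2 and Cox7a2l by the interaction test of edgeR. The interaction was 0.235 for Cox7a2 and 0.258 for Cox7a2l on the log2 scale, higher in IPO13-/- cells. Limma-voom and DESeq2 made neither call.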

How the results depend on the processing

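None of the 62 calls for named members reversed under any alternative. Of these calls 20 held in every alternative, and of 1052 values for them 868 kept and 184 lost the call. With library totals, 5 members were higher and 1 lower in the WT stress comparison, 28 were higher in the KO stress comparison, 10 were lower in untreated IPO13-/- cells and 0 passed the interaction. The interaction count was also 0 with limma-voom, DESeq2, filterByExpr and a minimum of 10 counts. In the WT stress comparison the number higher was 3 with relative log expression factors, 3 with filterByExpr and 6 with the length offset, and the number lower was 1 with DESeq2 and 0 with only the libraries compared. With the length offset 9 members were lower after treatment. The cause was not tested.

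Without single libraries, the members higher ranged from 0 to 8 (WT stress), 7 to 57 (KO stress), 6 to 9 (untreated), 10 to 22 (treated) and 0 to 31 (interaction), and those lower from 0 to 8, 0 to 0, 8 to 42, 1 to 6 and 0 to 0.

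Replicate numbers were not shown to pair the libraries. The correlation of replicate differences over 9077 genes was 0.614 between WT-NS and KO-ST, 0.348 between WT-NS and KO-NS and 0.326 between KO-NS and KO-ST, but -0.0207, -0.0846 and -0.000911 for WT-ST with WT-NS, KO-NS and KO-ST. With the replicate block 5 members were higher and 4 lower in the WT stress comparison, 57 higher in the KO stress comparison, 40 lower in untreated cells and 21 passed the interaction. Depth limits the low transcripts, above all Cox8c with 1 count in each WT-ST library.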
